A study of Mus musculus with 8 samples.

Results

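Neutrophils of peripheral blood (PB) were compared with neutrophils of bone marrow (BM), both taken from mice that had been given PBS by the intraperitoneal route and no lipopolysaccharide (LPS). The cells were chosen by the plate written into their names. This gave 348 PB neutrophils on 4 plates and 439 BM neutrophils on 5 plates, 787 of the 1421 cells and 9 of the 16 plates of the series. Batch 6 BM plate 3 joins the cells of 2 name prefixes, which were taken as 1 plate. The donors were male C57BL/6J mice of 7 to 12 weeks in the study's methods, with no transgene or deletion in either group. The sample labels place these PBS samples at 0 h, whereas the methods describe preparation 4 h after PBS or LPS. Neutrophils were enriched with a negative selection kit, picked singly and sequenced by SCRB-seq, a plate method that counts each transcript once through a unique molecular identifier (UMI).

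The plates belonged to batch 6 (2 PB and 3 BM) and batch 7 (2 PB and 2 BM), and each batch held both tissues. The batch 7 plates carry the names of labelled samples, and those of batch 6 carry only tissue and treatment. How many mice stand behind a plate is not given in the sources used here, so p-values measure the spread between plates. No cell name occurred on 2 plates and no 2 cells had the same counts, while 94 of the 95 well numbers were used by more than 1 plate, as a shared plate layout gives. Plates held 3240559 to 5330582 UMIs in PB and 6973234 to 10089434 in BM. Levels below are a gene's UMIs scaled to all UMIs of the plate (CPM). Fold changes are PB against BM on the TMM scale of edgeR with batch as a term.

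A neutrophil is made in the marrow from a myeloblast, and its granules are filled one kind after another while it differentiates. Primary (azurophil) granule proteins are made first, secondary (specific) granule proteins such as lactoferrin at the myelocyte stage, and gelatinase granule and secretory vesicle proteins last. The transcripts of the earlier kinds are largely switched off before a mature cell is released. Release is governed by chemokine receptors, among which CXCR4 holds cells in the marrow and CXCR2 draws them out. In blood the cells live for a short time and respond rapidly to cytokines and to microbial products through immediate early genes and NF-kB.

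Both tissues held cells with neutrophil transcripts. All 12 neutrophil markers were detected, and their summed share was 12.3% to 18.4% of UMIs in PB plates and 36.7% to 41.3% in BM plates. S100a8, S100a9 and Csf3r, the receptor for the granulocyte growth factor G-CSF, were abundant on every plate. Ly6g, the usual surface marker of mouse neutrophils, was low in PB, as described below. Transcripts of other cell types were more frequent in PB. The T and NK cell list took 0.0636% to 0.230% of UMIs in PB and at most 0.00427% in BM, the B cell list 0.0306% to 0.134% and at most 0.00328%, and the platelet list 0.0364% to 0.337% and at most 0.00765%. Of the 19 T and NK markers 5 were at 0 on all BM plates, as were 3 of the 10 platelet markers, and 0 were at 0 on all PB plates. The monocyte and macrophage list took 0.123% to 0.168% in PB and 0.0805% to 0.139% in BM. Of its 6 tested members 4 were called higher in PB (Fn1, Adgre1, Cd68 and Mpeg1), while Ly6c2 was called higher in BM (-3.09). In 25 PB cells and 0 BM cells the lymphoid, erythroid, platelet, eosinophil and basophil lists together exceeded 1% of UMIs. The monocyte and macrophage list was not part of that limit. Liver transcripts took 0.363% and 0.543% of UMIs on the batch 7 PB plates and at most 0.0224% on the other 7 plates. They remained in the plate totals and in the tests, and no conclusion is drawn from them.

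Of 7066 genes tested, 624 were called at an adjusted p of 0.05. Higher in PB were 300 genes (4.25% of those tested) and higher in BM were 324 (4.59%), and over all genes the median of the log2 fold changes was 0.08. The 300 include markers of other cells: 7 of 8 tested T and NK cell markers, 5 of 6 B cell markers and 5 of 7 platelet markers. Without the 25 cells rich in other cell types 613 genes were called, 289 higher in PB and 324 in BM. Of these, 541 were among the 624. At an unadjusted p of 0.05, 1406 genes passed. Without TMM, by library size alone, the median was 0.59 and the calls were 684 higher in PB and 201 higher in BM. Every direction below is therefore relative to the TMM scale, and named lists whose median changes sign by library size alone are pointed out. Each list's count of calls on that scale is to be read beside the 4.25% (PB) and 4.59% (BM) of all genes. The plates of PB and BM did not overlap in CPM for 853 genes higher in PB (12.1%) and 281 higher in BM (3.98%). Genes higher in BM included those of secondary granules, the oxidase subunit Cybb and the maturation factor Cebpe. Genes higher in PB included immediate early genes, Il1b and other cytokine genes, cytokine feedback regulators and the receptors Csf3r, Clec7a and Itga4.

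**Figure D1:**
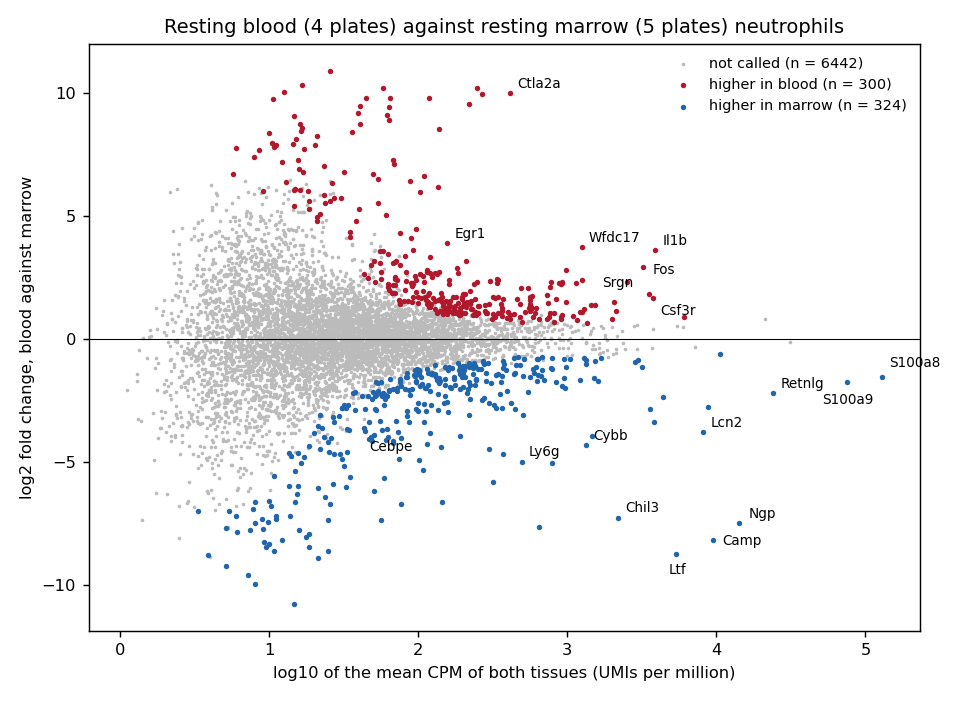
Each point is 1 of the 7066 genes tested, with the log10 of its mean CPM over both tissues on the horizontal axis and its log2 fold change (PB against BM, edgeR) on the vertical axis. Red points are the 300 genes called higher in PB and blue points the 324 called higher in BM, and Ltf, Camp and Ngp lie at -8.74, -8.14 and -7.47.

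Secondary granule genes include Ltf, Camp, Ngp and Chil3, which are 4 of the 5 largest falls among called genes with at least 50 CPM in BM, no overlap of plates and no BM plate on which 2 cells held 50% of the UMIs. All 13 listed members were tested, 9 were called higher in BM and 0 higher in PB, and their median log2 fold change was -4.58 (-4.04 by library size alone). Ngp, which encodes neutrophilic granule protein, was read at 28568, 27174 and 32612 CPM on the batch 6 BM plates and at 18569 and 34411 on the batch 7 BM plates. On the PB plates it was read at 452 and 374 CPM in batch 6 and at 61.3 and 142 in batch 7. Every BM plate was thus far above every PB plate, with a log2 fold change of -7.47 (SE 0.45, adjusted p = 5.6e-09).

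Camp, the gene of the antimicrobial cathelicidin (mm9 chromosome 9, 109749889 to 109751970, minus strand), stood at 20331, 18663 and 18540 CPM in batch 6 BM and at 13974 and 22399 in batch 7 BM. In PB it stood at 242 and 156 CPM in batch 6 and at 34.3 and 35.2 in batch 7. The log2 fold change was -8.14 (SE 0.48, adjusted p = 5.6e-09). Ltf, the gene of the iron-binding lactoferrin (mm9 chromosome 9, 110921796 to 110945270, plus strand), had 8118 to 12315 CPM in BM. Its PB plates had 120 and 79.0 CPM in batch 6 but 4.96 and 8.95 in batch 7, and the log2 fold change was -8.74 (SE 0.65, adjusted p = 5.12e-08). The lower PB level on the batch 7 plates recurred in Camp, Ltf and Chil3.

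The remaining members of the secondary granule list differed in size. Lcn2, the siderophore-binding lipocalin, stayed at 1209 to 1870 CPM in PB against 10324 to 20664 in BM (log2 fold change -3.78). The collagenase gene Mmp8 was -3.36, the surface protein gene Cd177 -5.03, the chitinase-like Chil3 -7.24, Olfm4 -4.87 and the peptidoglycan-binding Pglyrp1 -1.58, all called higher in BM. Hp (haptoglobin, -0.41, adjusted p = 0.335), Slpi (a protease inhibitor, 0.35, adjusted p = 0.35), Tcn2 (a cobalamin carrier, -0.61, adjusted p = 0.296) and Lyz1 (-4.58, adjusted p = 0.144) were not called.

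The bases upstream of the start site are shown for 4 of these genes because they are abundant members called higher in BM and because C/EBP factors, of which Cebpe is described below, are known regulators of this granule class. They are RefSeq promoters of GRCm38.p6, printed 5′ to 3′ over 250 bases upstream, with the C/EBP letters TTGCNNAA on either strand in capitals. Ltf lies at chr9:111019042-111019291 on the plus strand, Ngp at chr9:110419558-110419807 on the plus strand, Lcn2 at chr2:32387740-32387989 on the minus strand and Camp at chr9:109849457-109849706 on the minus strand.
Ltf: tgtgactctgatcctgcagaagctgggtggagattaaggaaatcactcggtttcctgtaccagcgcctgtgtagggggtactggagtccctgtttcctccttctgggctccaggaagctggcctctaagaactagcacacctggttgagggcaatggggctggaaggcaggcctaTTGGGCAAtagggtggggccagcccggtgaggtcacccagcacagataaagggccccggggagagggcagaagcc
Ngp: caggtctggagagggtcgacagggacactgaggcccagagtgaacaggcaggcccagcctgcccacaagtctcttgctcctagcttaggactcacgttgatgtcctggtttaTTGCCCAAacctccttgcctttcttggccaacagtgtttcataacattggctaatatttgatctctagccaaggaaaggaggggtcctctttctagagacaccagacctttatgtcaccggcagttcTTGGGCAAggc
Lcn2: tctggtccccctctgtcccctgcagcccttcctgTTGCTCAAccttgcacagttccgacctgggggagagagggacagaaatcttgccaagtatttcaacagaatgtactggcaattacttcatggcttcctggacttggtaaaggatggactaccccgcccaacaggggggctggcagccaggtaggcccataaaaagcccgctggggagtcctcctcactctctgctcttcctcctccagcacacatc
Camp: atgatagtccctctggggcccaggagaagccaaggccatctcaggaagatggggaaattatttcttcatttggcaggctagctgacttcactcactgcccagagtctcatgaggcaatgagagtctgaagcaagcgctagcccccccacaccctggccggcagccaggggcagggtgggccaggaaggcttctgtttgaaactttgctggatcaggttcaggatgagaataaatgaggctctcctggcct
The Camp window held no match. Of the 11 list members with a RefSeq promoter, 6 held the letters (Lcn2, Ltf, Lyz1, Mmp8, Ngp and Slpi), as did 10.8% of the promoters of all 27025 gene symbols. This motif was 1 of 8 searched once the expression results were known, so the match is a description of these windows. Among the others, the NF-kB motif was held by 3 of the 11 members (19.7% of all promoters). The motif of PU.1 (Spi1) was held by 2 (2.79%).

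**Figure D2:**
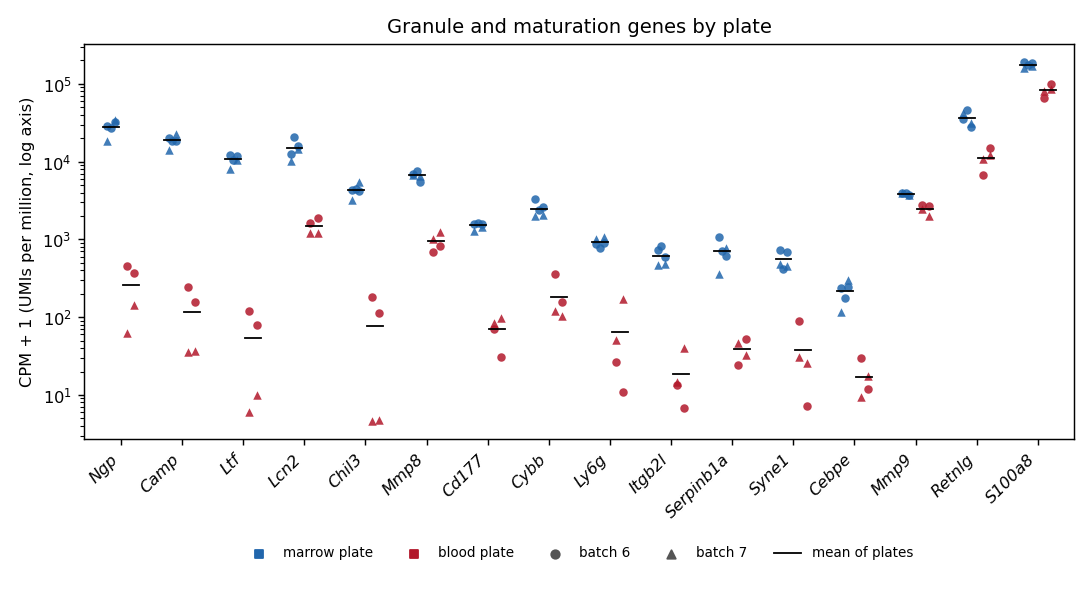
CPM + 1 of 16 granule and maturation genes on a log axis, 1 point per plate, with BM in blue, PB in red, circles for batch 6, triangles for batch 7 and a black line at the mean of the plates. The 5 BM plates lie above the 4 PB plates for each gene shown, from Ngp (18569 to 34411 CPM against 61.3 to 452) to Mmp9 (3670 to 4002 against 2015 to 2730).

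The share of UMIs in the secondary granule list was 9.20%, 9.68%, 9.56%, 6.89% and 10.1% in BM and 0.849%, 0.943%, 0.934% and 1.06% in PB. The mean was 9.09% ± 1.28 (SD, n = 5) in BM and 0.946% ± 0.0866 (SD, n = 4) in PB. The difference within batches was -8.05 percentage points (two-sided exact permutation over plates within batch, p = 0.0167, the smallest of 60 arrangements; adjusted over 4 plate measures 0.0222). With the median over cells in place of the sum it was -3.10 points, and with each cell thinned to 5000 UMIs -5.49. The list was written with earlier results of these data known and holds several of the largest falls. The permutation p-value therefore describes the separation of the plates and adds no independent support.

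Single cells showed how the share was spread. On the 5 BM plates the median cell gave 2.67% to 5.95% of its UMIs to the list, with a 10th percentile of 1.03% to 2.603% and a 90th percentile of 13.6% to 16.8%. On the 4 PB plates the median was 0.858% to 0.887% and the 90th percentile 1.49% to 1.75%. The highest single PB cell reached 3.08%. Between 0 and 25 cells of a BM plate lay under 1.75%, most of them on batch 7 plate 1 (25 of 83) and on batch 6 plate 3 (16 of 89). After thinning, at least 1 Camp UMI was seen in 98.8% to 100% of the cells of each BM plate and in 65.9%, 44.1%, 7.78% and 12.8% of PB cells. Whether stray UMIs from other wells add to such low shares was not tested.

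**Figure D3:**
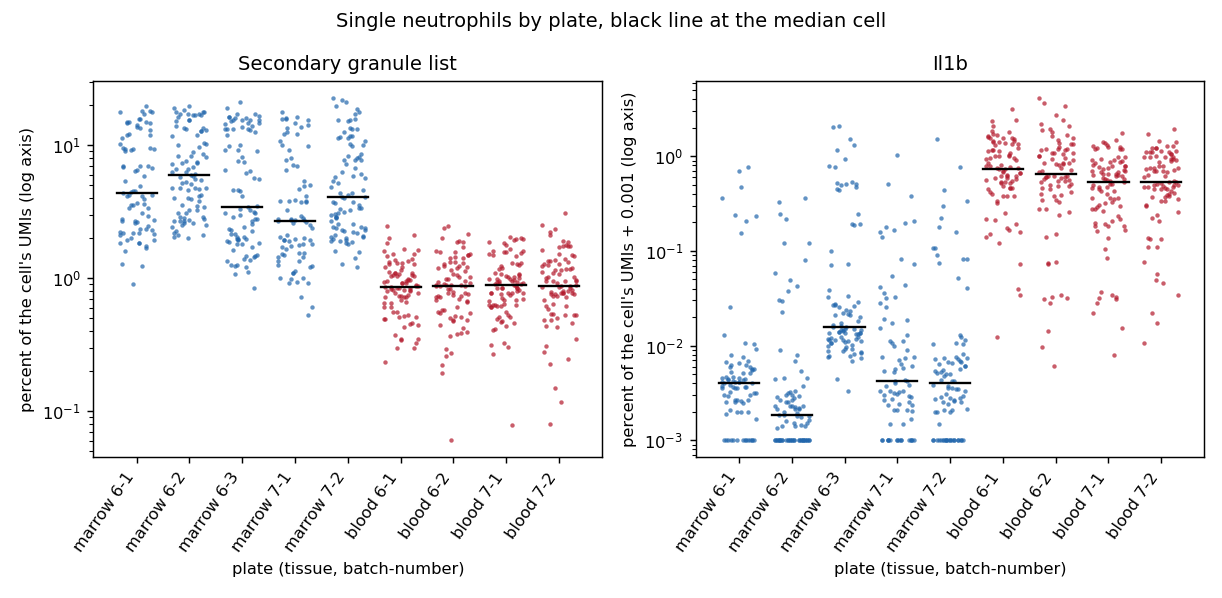
Each point is 1 of the 787 cells, by plate, with the share of its UMIs in the secondary granule list (left) and in Il1b plus 0.001 (right) in percent on log axes, BM in blue and PB in red, and a black line at the median cell. BM medians lie between 2.67% and 5.95% and PB medians between 0.858% and 0.887% on the left, and the order of the tissues is the opposite on the right.

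Gelatinase granule and secretory vesicle genes, made later in maturation, were less far apart. Of 9 tested, 4 were higher in BM and 0 in PB, with a median log2 fold change of -1.13 (-0.62 by library size alone). Retnlg, the resistin-like gene typical of mouse neutrophils, had 28016 to 46476 CPM in BM and 6638, 15000, 10849 and 12343 in PB (log2 fold change -2.18, SE 0.27, adjusted p = 2.96e-05). Mmp9, gelatinase B, had 3670 to 4002 CPM in BM and 2015 to 2730 in PB (-1.13, SE 0.18, adjusted p = 0.000395). Mmp25 (-2.65), a membrane-bound protease, and the formyl peptide receptor Fpr2 (-1.52) were the others called.

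The primary granule list took 1.45% to 1.85% of UMIs in BM and 0.767% to 1.05% in PB. Mpo and Elane, myeloperoxidase and neutrophil elastase, were not tested because of low counts, with 21.1 and 49.8 CPM on batch 6 BM plate 2 and 0 on the other 8 plates. Of 6 tested, Serpinb1a (an inhibitor of granule proteases, -4.64), Lyz2 (lysozyme, -2.75) and Clec5a (-1.16) were higher in BM. Srgn, the proteoglycan serglycin that packs granules, was called the other way, with 4711 to 6702 CPM in PB and 773 to 1895 in BM (1.82, SE 0.23, adjusted p = 3.39e-05). Prss57 (4.43, adjusted p = 0.206) and Ctsc (2.38, adjusted p = 0.269) were also positive but not called. The list median was 0.33 (0.84 by library size alone).

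The calprotectin genes, which encode the most abundant proteins of the neutrophil cytosol, were high in both tissues and higher in BM. S100a8 took 160584 to 191269 CPM in BM and 65083, 100587, 80376 and 85470 in PB (-1.55, SE 0.21, adjusted p = 7.57e-05). S100a9 took 98825 to 114577 in BM and 36788 to 55520 in PB (-1.75, SE 0.21, adjusted p = 2.04e-05). Of the 8 calprotectin and annexin genes tested 5 were higher in BM, among them Anxa1 (-2.34) and Anxa3 (-4.37), and 1 was higher in PB. That 1 was S100a10, the annexin A2 partner, with 79.9 to 213 CPM in PB and at most 6.53 in BM (7.13, SE 1.12, adjusted p = 0.000349). On 1 PB plate, however, 2 cells held 84.6% of its UMIs, and without batch 6 BM plate 3 the log2 fold change of S100a10 was 9.09.

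Surface and receptor genes moved in both directions. Ly6g was read at 861, 780, 885, 1016 and 1062 CPM on the BM plates and at 25.6, 9.94, 49.2 and 173 on the PB plates (log2 fold change -4.97, SE 0.52, adjusted p = 5.18e-06). After thinning, a Ly6g UMI was seen in 70.2% of BM cells and 10.3% of PB cells, and the BM plates did not overlap the PB plates. Of 18 adhesion and surface genes tested, 7 were higher in BM, including the integrin-like Itgb2l (-5.79), Itgam (CD11b, -1.72) and Cd24a (-1.58). Tspan13 (2.47), a tetraspanin, and Selplg (0.96), the selectin ligand PSGL-1, were higher in PB. The list median was 0.26 (0.79 by library size alone). By library size alone 6 were called higher in PB and 6 in BM, so the balance of calls depends on scaling.

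Among 13 release and homing receptors, 4 were higher in PB and 2 in BM. Csf3r was read at 837, 846, 1623, 2249 and 1291 CPM in BM and at 7045, 4970, 6748 and 5743 in PB (1.67, SE 0.24, adjusted p = 0.00012). Itga4, the alpha chain of the integrin VLA-4, rose from 17.1 to 42.0 CPM in BM to 201 to 302 in PB (2.64, SE 0.36, adjusted p = 8.1e-05). Ptafr, the receptor for platelet-activating factor, was also higher in PB (1.08), whereas the leukotriene B4 receptor Ltb4r1 (-2.54) and the sphingosine phosphate receptor S1pr4 (-2.02) were higher in BM.

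Cxcr4 and Cxcr2 both had positive log2 fold changes. Cxcr4 was read at 101, 94.7, 81.3, 60.2 and 45.3 CPM in BM and at 424, 215, 152 and 152 in PB, and it was higher in PB (1.16, SE 0.30, adjusted p = 0.0182). That call held in 7 of the 9 repeats that left out 1 plate. Cxcr2 was read at 854, 887, 979, 1689 and 953 CPM in BM and at 1640, 1964, 2886 and 2576 in PB. Its log2 fold change of 0.54 (SE 0.21) did not pass (adjusted p = 0.131), and by library size alone it was 1.03 (adjusted p = 0.0015). Its plates overlapped, since BM batch 7 plate 1 was above PB batch 6 plate 1.

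Of 16 factors of granulopoiesis 4 were higher in BM and 0 in PB by edgeR, with a median log2 fold change of -0.19 that was 0.31 by library size alone. DESeq2 and limma-voom each called 2 higher in PB. Cebpe, the C/EBP member that drives the later steps of granule gene expression, was read at 239, 176, 240, 114 and 300 CPM in BM and at 28.6, 11.1, 8.53 and 16.7 in PB (-4.25, SE 0.43, adjusted p = 3.54e-06). No PB plate reached the lowest BM plate. Klf5 (-4.13), Hmgn2 (-1.06) and Myb (-7.19, with at most 25.0 CPM on any plate) were the others. Myb, a factor of progenitors, was called in 1 of the 9 repeats that left out a plate and Hmgn2 in 2 of 9. Spi1 (PU.1), the abundant Mxd1 and Cebpb were not called. Of 10 cell cycle genes tested only the histone gene H2afz was called (-1.42, adjusted p = 0.0165), and Mki67, a marker of dividing cells, was at 3.97 to 27.4 CPM in BM and 8.25 to 54.6 in PB (0.12, adjusted p = 0.969).

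NADPH oxidase genes, which make superoxide, were led by Cybb, the catalytic gp91phox subunit. Cybb was read at 3354, 2378, 2572, 1983 and 2050 CPM in BM and at 355, 154, 119 and 103 in PB (-4.30, SE 0.27, adjusted p = 5.6e-09). Its membrane partner Cyba was at 1644 to 2435 in BM and 1115 to 1769 in PB (-0.77, adjusted p = 0.0366). The cytosolic subunits Ncf1 (-0.78) and Ncf4 (-1.01) and the proton channel gene Hvcn1 (-3.33) were called higher in BM. By library size alone 1 of the 8 was called higher in BM, against 5 on the TMM scale.

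Immediate early genes were higher in PB. They are transcribed within minutes of a stimulus without new protein synthesis. Of 21 tested, 17 were called higher in PB and 0 higher in BM, where 4.25% of all genes were called in that direction, and the median log2 fold change was 2.33. The list took 1.72% to 2.998% of UMIs in PB and 0.236% to 0.634% in BM. Fosl2 (-0.19), Ier3 (0.44), Atf3 (2.596, adjusted p = 0.0873) and Fosb (3.36, adjusted p = 0.0674) were not called.

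Fos, a subunit of AP-1, was read at 274, 144, 1254, 766 and 252 CPM in BM and at 8232, 8273, 3649 and 3511 in PB (2.94, SE 0.47, adjusted p = 0.000395). Both batch 6 PB plates were above the batch 7 ones, and all 4 were above the highest BM plate. Egr1 was read at 0.5, 3.67, 81.2, 6.17 and 5.86 CPM in BM and at 368, 285, 233 and 287 in PB (3.91, SE 0.89, adjusted p = 0.00839). The highest BM plate was batch 6 plate 3 for both genes, as it was for Jun, Junb, Dusp1, Nr4a1 and Il1b. Without that plate the log2 fold change was 3.57 for Fos, 5.80 for Egr1, 4.46 for Jun and 6.07 for Nr4a1, all still called. In batch 6 alone Egr1 (3.01, adjusted p = 0.183) and Jun (2.62, adjusted p = 0.137) were not called, and in batch 7 alone Jun (4.22, adjusted p = 0.1) and Nr4a1 (4.90, adjusted p = 0.162) were not. Dusp1, a phosphatase that shuts off MAP kinases, had 2701 to 6071 CPM in PB and 167 to 1078 in BM (2.33), and Klf2, a quiescence factor, had 1390 to 2046 and 157 to 395 (2.28, adjusted p = 2.31e-06). Nr4a1 (4.47), Jun (3.37), Junb (2.41) and Zfp36 (1.49), which destabilizes cytokine mRNAs, were also called.

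Promoters are shown for 4 immediate early genes called higher in PB, Btg2 (1.09) among them, and all 4 hold the letters marked. They are again RefSeq sequences of GRCm38.p6 over 250 bases upstream, with TGACG, the core letters bound by CREB-type factors, in capitals on either strand. In Dusp1 and Btg2 both strands overlap to form the full site TGACGTCA. Fos lies at chr12:85473640-85473889 and Nr4a1 at chr15:101266596-101266845 on the plus strand, and Dusp1 at chr17:26508473-26508722 and Btg2 at chr1:134079156-134079405 on the minus strand.
Fos: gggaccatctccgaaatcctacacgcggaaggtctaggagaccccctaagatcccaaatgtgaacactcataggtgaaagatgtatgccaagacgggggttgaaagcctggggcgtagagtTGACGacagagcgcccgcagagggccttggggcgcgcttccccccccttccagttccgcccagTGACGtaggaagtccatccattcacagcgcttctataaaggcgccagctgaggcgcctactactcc
Nr4a1: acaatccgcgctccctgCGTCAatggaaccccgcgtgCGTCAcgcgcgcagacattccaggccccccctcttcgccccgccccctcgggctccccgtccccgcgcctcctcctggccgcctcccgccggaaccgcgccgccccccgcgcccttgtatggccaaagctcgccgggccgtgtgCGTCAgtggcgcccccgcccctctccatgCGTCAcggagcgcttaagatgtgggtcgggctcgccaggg
Dusp1: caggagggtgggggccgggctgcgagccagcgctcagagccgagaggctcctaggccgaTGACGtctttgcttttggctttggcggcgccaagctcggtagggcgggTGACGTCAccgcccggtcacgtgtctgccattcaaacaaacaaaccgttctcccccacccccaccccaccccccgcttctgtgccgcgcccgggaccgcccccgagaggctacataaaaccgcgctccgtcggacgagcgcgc
Btg2: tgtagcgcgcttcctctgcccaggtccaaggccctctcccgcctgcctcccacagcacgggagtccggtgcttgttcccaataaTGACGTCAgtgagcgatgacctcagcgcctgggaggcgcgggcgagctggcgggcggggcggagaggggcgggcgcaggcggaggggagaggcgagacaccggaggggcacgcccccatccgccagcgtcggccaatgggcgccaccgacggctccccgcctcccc
Of the 19 list members with a promoter, 10 held TGACG on either strand, the 4 shown among them, and 2 held TGACGTCA. Of all promoters 19.8% and 1.77% did. These letters were among the 8 motifs searched after the results were known. Among the others, the AP-1 motif and the CArG motif (a run of A or T between CC and GG) were each held by 1 of the 19. The NF-kB motif was held by 5. Of all promoters 7.82%, 1.62% and 19.7% held these 3 motifs.

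Of 14 cytokine and chemokine genes 7 were higher in PB and 0 in BM, with a median log2 fold change of 1.27. Il1b, the gene of the pyrogenic cytokine interleukin-1 beta, was read at 166, 109, 1169, 367 and 357 CPM in BM and at 8674, 8517, 5551 and 6466 in PB (3.63, SE 0.48, adjusted p = 5.73e-05). After thinning, an Il1b UMI was found in 96.4% to 98.9% of the cells of each PB plate and in 14.3% to 64.0% of the cells of each BM plate. The highest BM plate was batch 6 plate 3. On that plate the median cell gave 0.0147% of its UMIs to Il1b and the lowest cell 0.00230%, whereas on the other 4 BM plates the median was 0.000865% to 0.00323% and the lowest cell was at 0. So no cell of batch 6 plate 3 was without Il1b UMIs, and the source of these UMIs was not tested. Without that plate the log2 fold change was 4.51.

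Ccl6, a chemokine of myeloid cells, had 2813 to 3596 CPM in PB and 723 to 1754 in BM (1.14, SE 0.22, adjusted p = 0.00225). Csf1 (2.72), the macrophage growth factor, Ptgs2 (3.197), the inducible cyclooxygenase, Ccl3 (2.73) and Tnfsf14 (1.31) were also higher in PB. Ptgs2 was 4.995 without batch 6 BM plate 3 and was called in neither batch alone (adjusted p = 0.0716 and 0.617). Ccl4 had the widest difference of the list (6.20, SE 0.53, adjusted p = 3.55e-07), with 791, 227, 21.8 and 35.2 CPM in PB and at most 4.67 in BM. On 1 PB plate 2 cells held 96.4% of Ccl4 UMIs, and NK cell markers were present on the same plates. Without the 25 cells rich in other cell types it was 5.16. Tnf was at or below 53.6 CPM on all 9 plates and was not called (-0.62, adjusted p = 0.863).

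Of 17 NF-kB and cytokine feedback regulators, 5 were higher in PB and 0 in BM, with a median of 1.11. Socs3, the inhibitor of cytokine receptor signalling induced by STAT3, was read at 57.0, 9.42, 77.2, 28.4 and 11.1 CPM in BM and at 305, 361, 346 and 300 in PB (2.89, SE 0.50, adjusted p = 0.000904). Pim1, a kinase gene of the same pathway, had 54.5 to 249 CPM in PB and 6.13 to 15.3 in BM (3.38). Tnfaip2 had 1311 to 1870 and 166 to 384 CPM (2.35). Nfkbia, the inhibitor IkB alpha, was not called (0.25, adjusted p = 0.632) although its PB plates (335 to 438 CPM) lay above its BM plates (196 to 258).

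**Figure D4:**
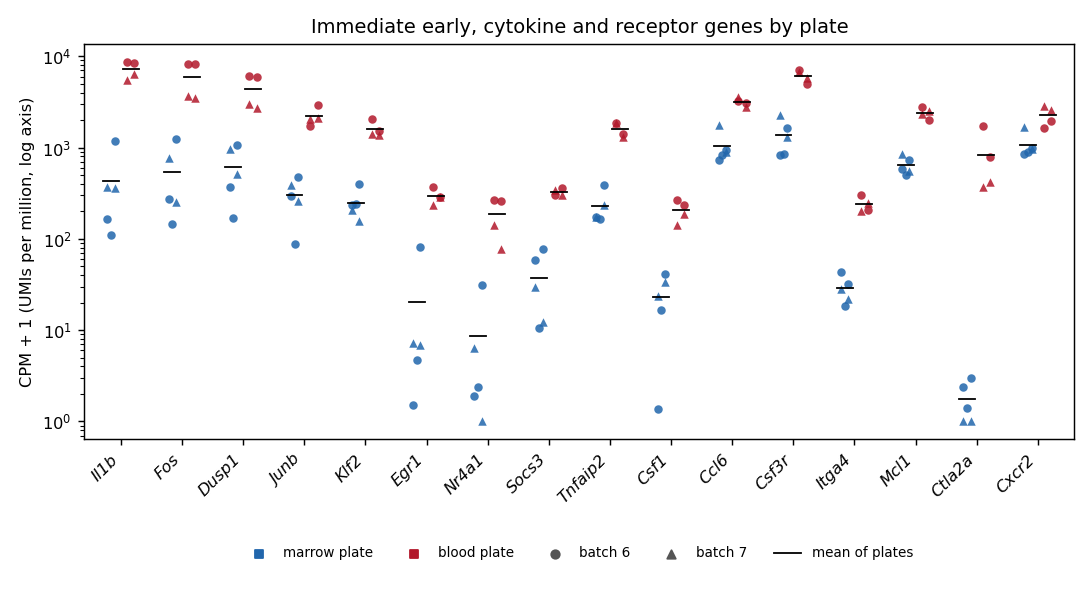
CPM + 1 of 16 immediate early, cytokine and receptor genes on a log axis, 1 point per plate, with BM in blue, PB in red, circles for batch 6, triangles for batch 7 and a black line at the mean of the plates. PB lies above BM without overlap for every gene shown but Cxcr2, and Ctla2a goes from at most 1.98 CPM in BM to 368 to 1722 in PB.

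Most pattern recognition genes were not called, with 5 of 20 higher in PB and 1 in BM. Clec7a (Dectin-1, a receptor for fungal glucan) had 1259 to 1814 CPM in PB and 125 to 281 in BM (2.30, SE 0.24, adjusted p = 3.97e-06). Cd14 (2.26), the co-receptor for LPS, Myd88 (1.34), the adaptor of most Toll-like receptors, Cd300ld (1.34) and Trem1 (0.98) were the others higher in PB, and Trem3 (-1.50) was higher in BM. Tlr2 and Tlr4 were not called (adjusted p = 0.415 and 0.799).

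Of 37 interferon-response genes 10 were higher in PB, where 4.25% of all genes were called, and 1 in BM (4.59%). Positive values were found for 33, beside 3710 of all 7066 genes, and the median was 1.15. By library size alone 19 were higher in PB and 1 in BM, with a median of 1.69. Ifitm1 had 1654 to 2418 CPM in PB and 79.5 to 565 in BM (2.31), and Irf7 (1.88), Irf1 (1.41), Rsad2 (1.43), Oasl2 (1.71), Slfn5 (2.55) and Irgm1 (2.34) were among those called. Ifitm6, a family member expressed in myeloid cells, was the exception, with 2231 to 3069 CPM in BM and 168 to 439 in PB (-3.93, SE 0.28, adjusted p = 2.65e-08). Slfn4, the most abundant of the list, was not called (0.05, adjusted p = 0.958). Related members of these families share sequence, and how their common reads were counted beyond unique mapping is not stated.

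Mcl1, the short-lived survival protein on which neutrophils depend, was the 1 survival gene of 16 that edgeR called (limma-voom called 1, DESeq2 3 and edgeR by library size alone 3), with 2005 to 2801 CPM in PB and 504 to 840 in BM (1.41, SE 0.20, adjusted p = 0.000111). Of 12 class I antigen presentation genes 2 were called, H2-Q10 (1.80) and H2-K1 (0.92), both higher in PB. These genes are near-identical in parts, so the split of reads between them is uncertain.

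Of 17 glycolysis genes 6 were higher in BM, where 4.59% of all genes were called, and 0 in PB. Among the 6 were Gpi1 (-1.35), Hk3 (-1.34), Ldha (-1.39) and Gapdh (-1.44). The median was -0.77. By library size alone it was -0.25, with 3 called higher in BM and 1 in PB. Of 73 respiratory chain and ATP synthase genes 1 was higher in PB (Ndufs8, 1.90) and 3 in BM (Ndufv3, Ndufb11 and Ndufb7), with a median of -0.08 that turned to 0.39 by library size alone. Of 45 proteasome genes 0 were called by edgeR, with 8 at an unadjusted p under 0.05, 0 called by limma-voom and 4 by DESeq2. Of 18 redox genes 3 were higher in PB, Fth1 (ferritin heavy chain, 0.90), Txnip (1.12) and Msrb1 (1.26), and Prdx5 was higher in BM (-1.70). Sod2, the mitochondrial superoxide dismutase on which the study centres, was low in both tissues, with 3.38, 9.61, 48.0, 1.43 and 20.9 CPM in BM and 10.3, 57.4, 20.2 and 49.1 in PB. The plates overlapped and the gene was not called (0.70, SE 1.05, adjusted p = 0.803).

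Of 77 cytosolic ribosomal protein genes 16 were called higher in PB, where 4.25% of all genes were called, and 0 in BM, while 61 were not called. By library size alone 48 were called higher in PB. In all 71 had a positive log2 fold change, beside 3710 of all 7066 genes, and the median was 0.65 (1.17 by library size alone). The list took 2.18% to 2.56% of UMIs in PB and 0.778% to 1.255% in BM. Ribosomal protein genes have many processed copies in the genome, and unique mapping can remove reads from them.

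Of 24 actin and motility genes edgeR called 9 higher in BM and 0 in PB on the TMM scale (15 and 2 at an unadjusted p under 0.05), DESeq2 13 and 1 and limma-voom 12 and 1. The list was led by the capping protein Capg (-2.77) and Arhgdib (-1.67). By library size alone 3 were called higher in BM and 4 higher in PB, so the lean of this list depends on scaling. Padi4, the enzyme that citrullinates histones during release of extracellular traps, was higher in BM (-1.22, adjusted p = 0.00167), as was Syne1, a nuclear envelope linker (-4.45, SE 0.50, adjusted p = 1.07e-05), with 420 to 730 CPM in BM and 6.19 to 86.9 in PB.

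Eicosanoid and lipid enzymes divided evenly, 3 in each direction of 12 tested. The leukotriene genes Lta4h (-3.95) and Alox5 (-1.09) and Dgat1 (-1.66) were higher in BM. Pla2g7, which breaks down platelet-activating factor, had 1195 to 1451 CPM in PB and 123 to 366 in BM (2.14, SE 0.27, adjusted p = 4.13e-05). The platelet-type lipoxygenase Alox12 (9.18) was higher in PB, where platelet markers were also found. On 1 PB plate 2 cells held 96.7% of its UMIs. Of the ER secretory genes 1 of 24 was called, Xbp1 (1.04, adjusted p = 0.0494).

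**Figure D5:**
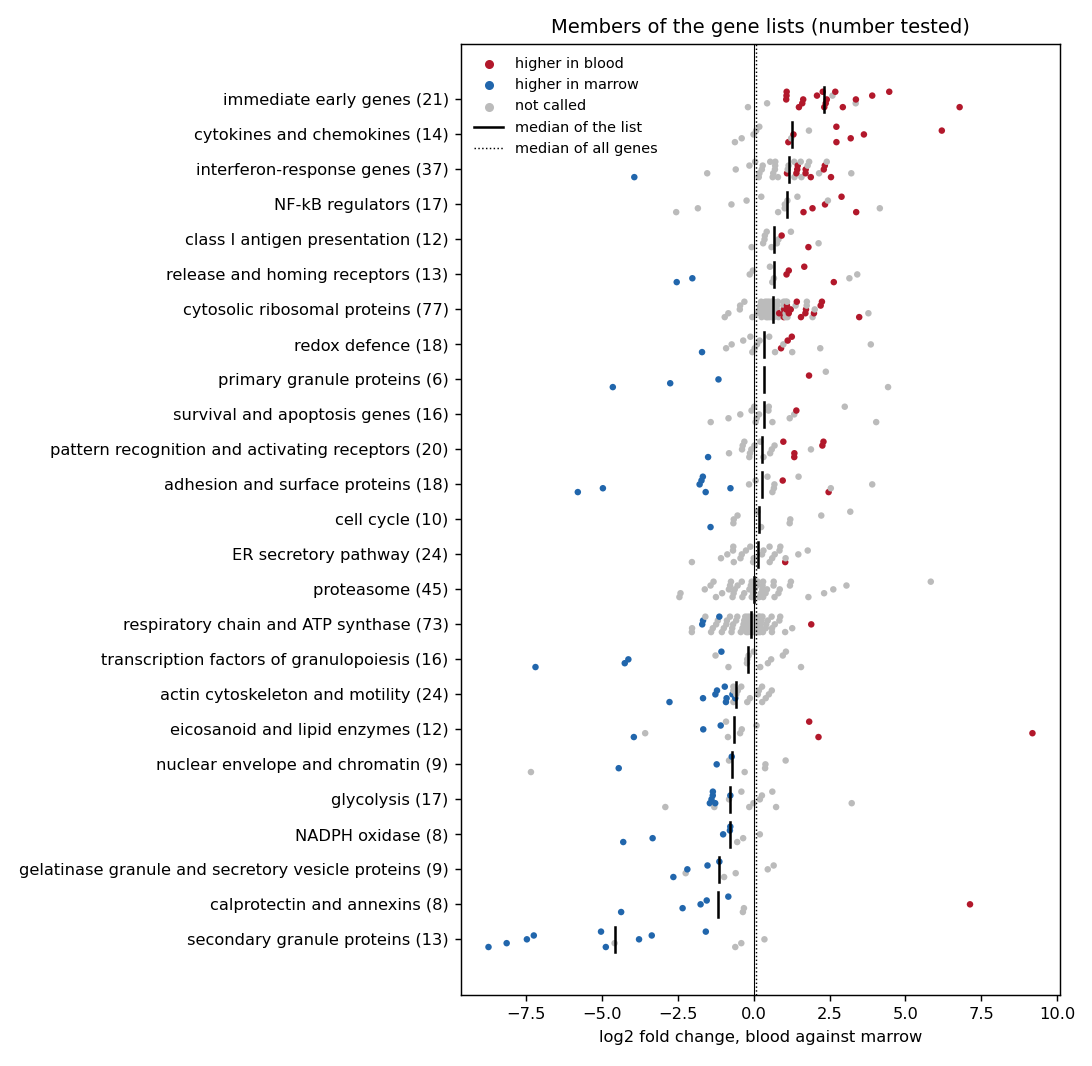
Each point is a tested gene of the list named on the left, with the number tested in brackets and its log2 fold change (PB against BM) on the horizontal axis, red where called higher in PB, blue where called higher in BM and grey where not called. Black bars are list medians, from -4.58 for secondary granule proteins to 2.33 for immediate early genes, and the dotted line is the median of all genes, 0.08.

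Beyond the lists, the largest rise among called genes with at least 50 CPM in PB, no overlap of plates, no PB plate on which 2 cells held 50% of the UMIs and no place on a list of other cell types was that of Ctla2a, an inhibitor of cathepsin-type proteases. It was read at 1.38, 0.396, 1.98, 0 and 0 CPM on the BM plates and at 1722, 791, 368 and 418 on the PB plates (10.003, SE 0.56, adjusted p = 5.6e-09). After thinning it was seen in 81.8%, 52.4%, 26.7% and 31.4% of the cells of the PB plates and in 0 cells of BM. The platelet list took 0.337%, 0.135%, 0.0617% and 0.0364% of UMIs on the same PB plates, and its part in the result was not tested. Without the 25 cells rich in other cell types the log2 fold change of Ctla2a was 9.96. Wfdc17, a secreted whey acidic protein (3.74), and Fgl2, a membrane prothrombinase (2.80), had 1282 to 3194 and 1372 to 2303 CPM in PB. Cd302 (3.16), Ctsa (3.01) and Prr5l (2.75) completed the 12 largest rises with Egr1, Il1b, Pim1, Fos, Socs3 and Csf1.

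Beside the granule genes, the 12 largest falls included Adpgk, the ADP-dependent glucokinase, with 1004 to 1653 CPM in BM and 0.992 to 22.7 in PB (-7.64, SE 0.55, adjusted p = 2.89e-08). Tinagl1 (-6.68), the unnamed gene 1700047M11Rik (-6.61), the receptor kinase Acvrl1 (-5.64) and the glutathione transferase Mgst2 (-4.91) had 60.8 to 371 CPM in BM. None of these 4 exceeded 30.9 CPM on a PB plate, and for each the highest PB plate was batch 7 plate 2.

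The comparison was repeated within each batch. Of the 365 genes called in batch 6 alone, 328 were tested in batch 7, and 313 of them had the same sign there. Of 194 called in batch 7 alone, 173 were tested in batch 6 and 171 had the same sign. The 112 genes called in both (34.1% of the first 328 and 64.7% of the second 173) all had the same sign, beside 64.0% of the 6585 genes tested in both. The batches share no plate. A test of the tissue-by-batch term called 5 of 7066 genes (0.0708%), with 469 at an unadjusted p under 0.05. They were Camp, Ltf and Chil3, which fell further in batch 7, Cebpb, with a log2 fold change of 2.34 in batch 6 and -0.76 in batch 7, and the liver gene Apoc1.

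UMIs per cell differed between the tissues, a measure that also depends on sequencing depth. The median cell had 46355, 62527.5, 49621.5 and 32295 UMIs on the PB plates and 82779.5, 88237, 75338, 49892 and 63846.5 on the BM plates, a difference of -21794 within batches (two-sided exact permutation, p = 0.0167, adjusted 0.0222). The authors' spike-in ratio, whose denominator is not stated, was 0.596 to 0.664 in PB and 0.398 to 0.483 in BM (difference 0.191, exact permutation p = 0.0167, adjusted 0.0222). Genes detected per cell at 5000 UMIs were 649.5 to 811 in PB and 510 to 798 in BM and overlapped between plates (difference 63.0, exact permutation p = 0.45). By the authors' own clustering, 341 of 348 PB cells fell into 1 cluster, which also held 7, 2, 19, 7 and 6 cells of the BM plates. The 19 were on batch 6 plate 3, the BM plate with the highest Fos, Egr1 and Il1b.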

How the data were processed

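SCRB-seq libraries of single neutrophils were used. Reads were trimmed by the authors with Cutadapt 1.15, aligned to mm9 with STAR 2.6.0a, limited to unique matches, collapsed by UMI and turned by the authors into the deposited counts with HTSeq 0.11.2, after their own filters on cells. The gene annotation is not given in the sources used here. Unique mapping leaves near-identical families (class I, Slfn, Ifit, Chil3, Wfdc, lysozyme and ribosomal protein genes) uncertain. The authors also deposited the spike-in ratio of each cell as a fraction.

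Here UMIs were summed per plate from the cells' names, since cells are not replicates. Of 10970 genes, 9919 were found in at least 10 cells, and 7066 passed filterByExpr. edgeR 4.0.16 (R 4.3.3) quasi-likelihood tests used batch and tissue, TMM and Benjamini-Hochberg adjustment at 0.05, two-sided. The common dispersion was 1.022, and replicate plates correlated at 0.692 to 0.770 in log2 CPM. Plate measures used an exact permutation of plates within batch. Thinning kept 5000 UMIs a cell. Doublets were not called again. The edgeR fit was tested on simulated counts with the means, library sizes and trended dispersion of these plates and no batch effect. Changes were seeded only in genes with higher counts, so the recovered shares do not cover genes with few UMIs. The fit called 34% of the genes seeded with a 4-fold change and 63% of those with a 16-fold change. Of its calls 5.83% were wrong. A gene that was not called here can therefore still differ between the tissues.

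The comparison, the lists and the tests were chosen with earlier results of these data known. Named genes were the 12 largest rises and 12 largest falls among called genes with at least 50 CPM in the higher tissue, no overlap of plates and under 50% of UMIs in the 2 top cells, outside the lists of other cell types, then of each list the 2 most abundant and up to 3 most changed members, and 10 fixed genes. Other genes in the text, such as Lcn2, Mmp8, Junb, Klf2 and the further list members given with a fold change only, were chosen after their values were seen, as was the spike-in measure. Wfdc21 was taken off the liver list after its marrow level was seen. Gene positions are from GENCODE M1 on mm9 and promoters from RefSeq on GRCm38.p6. Alternatives were library size alone, RLE, other filters, each plate left out, single batches, no batch term, a replicate block, summed plates, all 4 groups, thinned cells, cells left out, DESeq2 1.42.0 and limma-voom (limma 3.58.1). Some items are not reported here.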

Additional observations from a re-analysis of the deposited data

Results flagged for a closer look

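Among 252 groups of plates, 21 had 1 plate far from the others in CPM, where chance gives about 1 in 20. In BM the highest plate stood apart for Egr1 (81.2), Il1b (1169), Nr4a1 (30.1), Jun (76.8), Ptgs2 (102) and S100a10 (6.53), all on batch 6 plate 3. It also did for Cxcr2 (1689) and Ccl6 (1754), both on batch 7 plate 1, and for Fpr2 (1065), Cyba (2435) and Rpl3 (39.1). In PB the highest plate stood apart for Tinagl1 (10.2), 1700047M11Rik (15.4), Acvrl1 (12.96) and Mgst2 (30.9), all on batch 7 plate 2, and for H2afz (256), Tspan13 (706), Slfn4 (3999), Actb (14405) and Msrb1 (1494). The lowest PB plate stood apart for Nfkbia (335). The part of any 1 plate or its cells in these values was not tested.

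The PB against BM difference itself differed between batches for 5 genes by the edgeR interaction term, given as batch 7 minus batch 6 on the log2 scale. Chil3 was at -5.29 (adjusted p = 4.99e-06), Ltf at -3.52 (adjusted p = 0.000423), Camp at -2.40 (adjusted p = 0.0134) and Cebpb at -3.13 (adjusted p = 0.0253). The liver gene Apoc1 was at 14.99 (adjusted p = 0.0134), with liver transcripts abundant on the batch 7 PB plates.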

How the results depend on the processing

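With 4 against 5 plates, 9 repeats that each left out 1 plate called 495 to 563 genes (223 to 278 higher in PB and 251 to 294 higher in BM). By library size alone 684 were higher in PB and 201 in BM (77.29% against 48.08% of calls). DESeq2 called 1106 (499 and 607), batch 6 alone 365 (178 and 187) and batch 7 alone 194 (94 and 100). The interaction called 46 genes with no filter on low counts and 3 to 8 with 1 plate left out. The cause was not tested. With the replicate block 592 were called (281 and 311). The deviations of same-numbered PB and BM plates correlated at -0.0192, 0.00402 and -0.0052. The deviations of the 2 PB plates of a batch mirror each other, so these few values cannot decide whether same-numbered plates share mice.

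In batch 6 alone the share of UMIs in the secondary granule list differed by -8.58 points, UMIs per cell by -27676.9 and the spike-in ratio per cell by 0.189, and in batch 7 alone by -7.52, -15911 and 0.193. A single batch cannot reach p under 0.05 (the smallest exact p is 0.1 in batch 6 and 0.333 in batch 7). With 1 plate left out they ranged from -8.86 to -7.24, from -26125.6 to -17462.3 and from 0.177 to 0.204, with exact permutation p-values of 0.0333 to 0.0556, 0.0333 to 0.0667 and 0.0333 to 0.0556. When a batch 6 BM plate was left out, each batch held as many PB as BM plates, and the smallest two-sided exact p is then 0.0556. The threshold could not be reached there by any of the 3 measures, so missing it says nothing about them. UMIs per cell also missed it without batch 7 BM plate 2 or batch 7 PB plate 2.

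Among 122 named genes under 24 alternatives, 2601 values kept direction and call, 246 lost the call, 45 gained one and 29 changed sign, all of genes not called in the first place. By library size alone these were Mxd1 (0.35), Fcer1g (0.14), Pkm (0.11), Tmsb4x (0.38), Sec61b (0.064), Alox5ap (0.11), Cox4i1 (0.28) and Cox8a (0.29). In batch 6 alone they were Spi1 (-0.086), Gadd45a (-0.33) and Mki67 (-0.21), and in batch 7 alone Slfn4 (-0.20) and B2m (-0.071). With no filter they were Slfn4 (-0.021) and Gadd45a (-0.0043), with the replicate block Slfn4 (-0.11), and after thinning Gadd45a (-0.29) and Tmsb4x (0.064). With 1 plate left out Slfn4 ranged from -0.27 to 0.21, Gadd45a from -0.066 to 0.27, Psma7 from -0.069 to 0.34 and Mki67 from -0.049 to 0.59. The block, DESeq2 and the other fits without an interaction were not run for the batch difference.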
